A study of Arabidopsis thaliana with 18 samples.

Results

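In the shoot apex of *Arabidopsis thaliana*, 48 genes had a single listed splicing event, which the authors called temperature-responsive in at least 1 genotype. That event was a retained intron that most of the event's transcripts kept in wild-type (WT) plants at 16 °C. Percent spliced in (PSI) is given here as a fraction from 0 to 1, and for intron retention (IR) it says which part of the transcripts keeps the intron. A gene was taken if it stood on 1 row of the table, if that row was an IR event, and if its PSI in WT at 16 °C was 0.5 or more. In addition, 24 genes of the circadian clock, splicing factor and flowering groups and others were left out by name. The rule thus took 48 of the 334 listed genes, each with 1 of the 399 listed events. The table holds 155 IR events in 140 genes, and 103 of these genes passed every criterion other than the PSI level. The remaining 55 had a PSI under 0.5 in WT at 16 °C and are called mostly spliced below. Since the rule used the PSI of WT at 16 °C, that level and every difference that contains it are given as descriptions.

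The groups were *sdg8-2*, *sdg26-1* and WT (Col-0), each 1 day after a move to 25 °C and each at 16 °C. Both mutants are T-DNA insertion lines in Col-0, the first in SDG8 and the second in SDG26, which encode SET-domain histone methyltransferases. All plants had first spent 5 weeks at 16 °C under a short-day light regime (8 h light, 16 h dark). Harvest spanned several hours after lights on, according to the study. Whether harvest times differed between the groups is not stated, and an effect of time of day was not tested. Each of the 6 groups had 3 biological samples, 18 in all, with about 10 plants for each sample. Leaves were removed to enrich for the shoot apical meristem (SAM), so other tissue may still be present. The authors merged the replicates of a group before they estimated PSI, so the table gives 1 value per event and group, with 2 decimals and no error. For that reason no difference below has a test, and the spread between plants is unknown. A PSI lower or higher at 25 °C by 0.1 or more is called a fall or a rise below, as a size and not as a significant change, and each count over the 48 genes in a genotype is set beside the share of all listed events with a difference of that size. Counts within the gene groups, of 4 to 11 genes, are given as descriptions of these genes. The read depth behind a value is unknown from the table, which also holds no expression levels, so the tissue was not checked by markers. Neither SDG8 nor SDG26 has an event in the table, so the mutations were not checked either. Every listed event was called by the authors in at least 1 genotype, and events that did not respond anywhere are not in the table. By the study's methods, a call needed a minimum of isoform-specific reads in the replicates and a minimum Bayes factor. It also needed PSI differences within a condition smaller than those between conditions. These filters give neither the depth nor the spread of a single value.

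Intron retention is the most frequent form of alternative splicing in plants. The spliceosome leaves an intron in the transcript, and the product may be held in the nucleus, be degraded through a premature stop codon, or be translated if no stop codon interrupts the reading frame. Intron retention in plants responds to temperature, light and stress. Trimethylation of histone H3 at lysine 36 (H3K36me3) lies over the bodies of transcribed genes, and SDG8 is a main H3K36 methyltransferase of Arabidopsis. The mark has been linked to splice site choice through proteins that bind it.

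The table gives no positions for the events. In the RefSeq annotation of TAIR10.1, 34 of the 48 genes (70.8%) had at least 1 intron that 1 annotated transcript keeps and another removes, against 41 of the 53 mostly spliced genes with an entry (77.4%). The share was 63.6% over all 327 listed genes with an entry. These 87 introns were 69 to 616 bases long, with a median of 111, and 86 of them began with GT and ended with AG. In 15 of the 48 genes (31.2%) such an intron lay wholly within a coding sequence that runs through it, against 7 of 53 (13.2%) mostly spliced genes. The share was 21.5% over the 135 genes with an IR event and an entry, and 16.2% over all listed genes with an entry. In 10 genes (20.8%) its length was also a multiple of 3, called in frame below, against 6 mostly spliced genes (11.3%). This share was 15.6% over the genes with an IR event and 10.4% over all listed genes with an entry. Removal of such a length does not by itself shift the reading frame. The coding sequences of the transcripts that remove the intron were not checked. Among the 12 genes with exactly 1 intron that 1 annotated transcript keeps and another removes, 5 had it in frame within the coding sequence. These 5 are shown because the annotation holds no other candidate for the measured intron in them, although the table does not say that it is the measured one. They are written 5′ to 3′ on the coding strand as RefSeq gives them, with the first 6 bases and the last 3 bases in capitals to mark the ends where splicing would cut.
AT1G76720 (reverse strand, chr1:28798204-28798272): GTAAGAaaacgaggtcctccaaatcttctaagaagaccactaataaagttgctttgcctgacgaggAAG
LOV1 (AT2G02450, forward strand, chr2:650396-650500): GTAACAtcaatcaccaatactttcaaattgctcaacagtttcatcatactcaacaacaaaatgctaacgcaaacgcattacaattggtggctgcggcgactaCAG
ARASP (AT2G32480, reverse strand, chr2:13788997-13789107): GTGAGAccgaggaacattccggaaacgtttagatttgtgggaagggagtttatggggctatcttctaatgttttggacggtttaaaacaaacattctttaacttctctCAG
ARC5 (AT3G19720, reverse strand, chr3:6851210-6851317): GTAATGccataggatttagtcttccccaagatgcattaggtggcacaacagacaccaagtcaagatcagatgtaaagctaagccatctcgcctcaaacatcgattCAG
SIC (AT4G24500, forward strand, chr4:12658905-12658991): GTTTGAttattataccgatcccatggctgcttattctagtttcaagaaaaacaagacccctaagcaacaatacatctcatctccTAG
They are 69, 105, 111, 108 and 87 bases long, which is 23, 35, 37, 36 and 29 codons, and each has a GC content between 37.9% and 44.4%. All 5 begin with GT and end with AG. In each gene 1 or 2 annotated transcripts keep the stretch and 1 or 2 remove it.

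At 25 °C most of the 48 introns were retained less than at 16 °C, in about the same share as IR events in general. In *sdg8-2* PSI was lower at 25 °C in 31 genes (64.6%, against 62.6% of all listed IR events) and higher in 17, with a median difference (25 °C minus 16 °C) of −0.045, against −0.04 over IR events. In *sdg26-1* it was lower in 31 (64.6%, against 64.5%), higher in 15 and equal in 2, with a median of −0.085, against −0.07. In WT it was lower in 28 (58.3%, against 61.3%), higher in 19 and equal in 1, with a median of −0.04, against −0.03. Over all listed events the shares were 56.1%, 55.9% and 54.6%. Falls of 0.1 or more in *sdg8-2* numbered 19 (39.6%), where 31.8% of all listed events and 32.9% of all listed IR events had such a fall. There were 23 in *sdg26-1* (47.9%), with 34.8% of all listed events and 40.6% of IR events. In WT there were 16 (33.3%), with 27.8% and 26.5%, and here the 16 °C value chose the genes, so nothing is read from the share. Rises of that size were fewer. In *sdg8-2* 6 genes had one (12.5%, background 24.3% of all events and 17.4% of IR events), in *sdg26-1* 7 (14.6%, background 24.8% and 20.0%) and in WT 8 (16.7%, background 23.3% and 23.9%). The mostly spliced genes had fewer such falls in both mutants, 12 of 55 in *sdg8-2* (21.8%) and 16 in *sdg26-1* (29.1%), and more such rises, 10 (18.2%) and 11 (20.0%). Their median differences, −0.04 in *sdg8-2* and −0.05 in *sdg26-1*, were close to those of the 48 genes or less negative. With a median PSI of 0.23 at 16 °C in *sdg8-2* and 0.22 in *sdg26-1*, the mostly spliced genes had little room for a fall and much for a rise, and the 48 genes the reverse, so the level and the counts of falls and rises cannot be told apart.

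**Figure D1:**
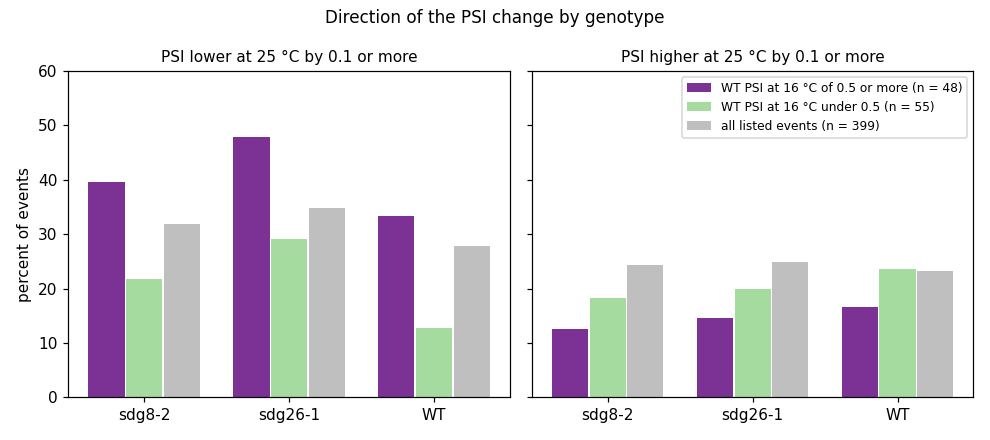
Percent of events (y axis) with a PSI lower (left) or higher (right) at 25 °C than at 16 °C by 0.1 or more, by genotype, for the 48 genes (purple), the 55 mostly spliced single-event IR genes (green) and all 399 listed events (grey). In the mutants the 48 genes have the highest bars for falls, 39.6% in *sdg8-2* and 47.9% in *sdg26-1*, and the lowest for rises, while the WT bars contain the value that chose the genes, and no bar has a replicate error.

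The direction was mostly shared by the genotypes. PSI was lower at 25 °C in all 3 genotypes in 27 genes (56.2%, against 54.8% of IR events and 47.9% of all events). It was higher in all 3 in 15 (31.2%, against 29.7% and 36.1%). Thus 42 of 48 (87.5%) had 1 sign, against 74.5% of the mostly spliced genes, 84.5% of IR events and 84.0% of all events. The other 6 genes were AT1G01210, *EMB269*, *GC5*, AT3G15358, AT4G19510 and *SYP41*. A difference of 0.1 or more was present in all 3 genotypes in 14 genes (29.2%, against 29.7% of IR events and 31.6% of all events). It was present in 2 genotypes in 13 (27.1%, against 23.9% and 23.1%) and in 1 in 11 (22.9%, against 24.5% and 26.1%). In 10 genes it was present in none (20.8%, against 21.9% and 19.3%). Of the 14, 11 were lower at 25 °C (22.9% of the 48, against 18.1% of IR events and 17.5% of all events) and 3 were higher (6.2%, against 9.7% and 12.8%). The genotypes were sampled separately at both temperatures, so these shared signs come from different plants. Each of these counts uses the WT change, which contains the value that chose the genes. They are therefore descriptions, and nothing is read from their contrast with the background shares.

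**Figure D2:**
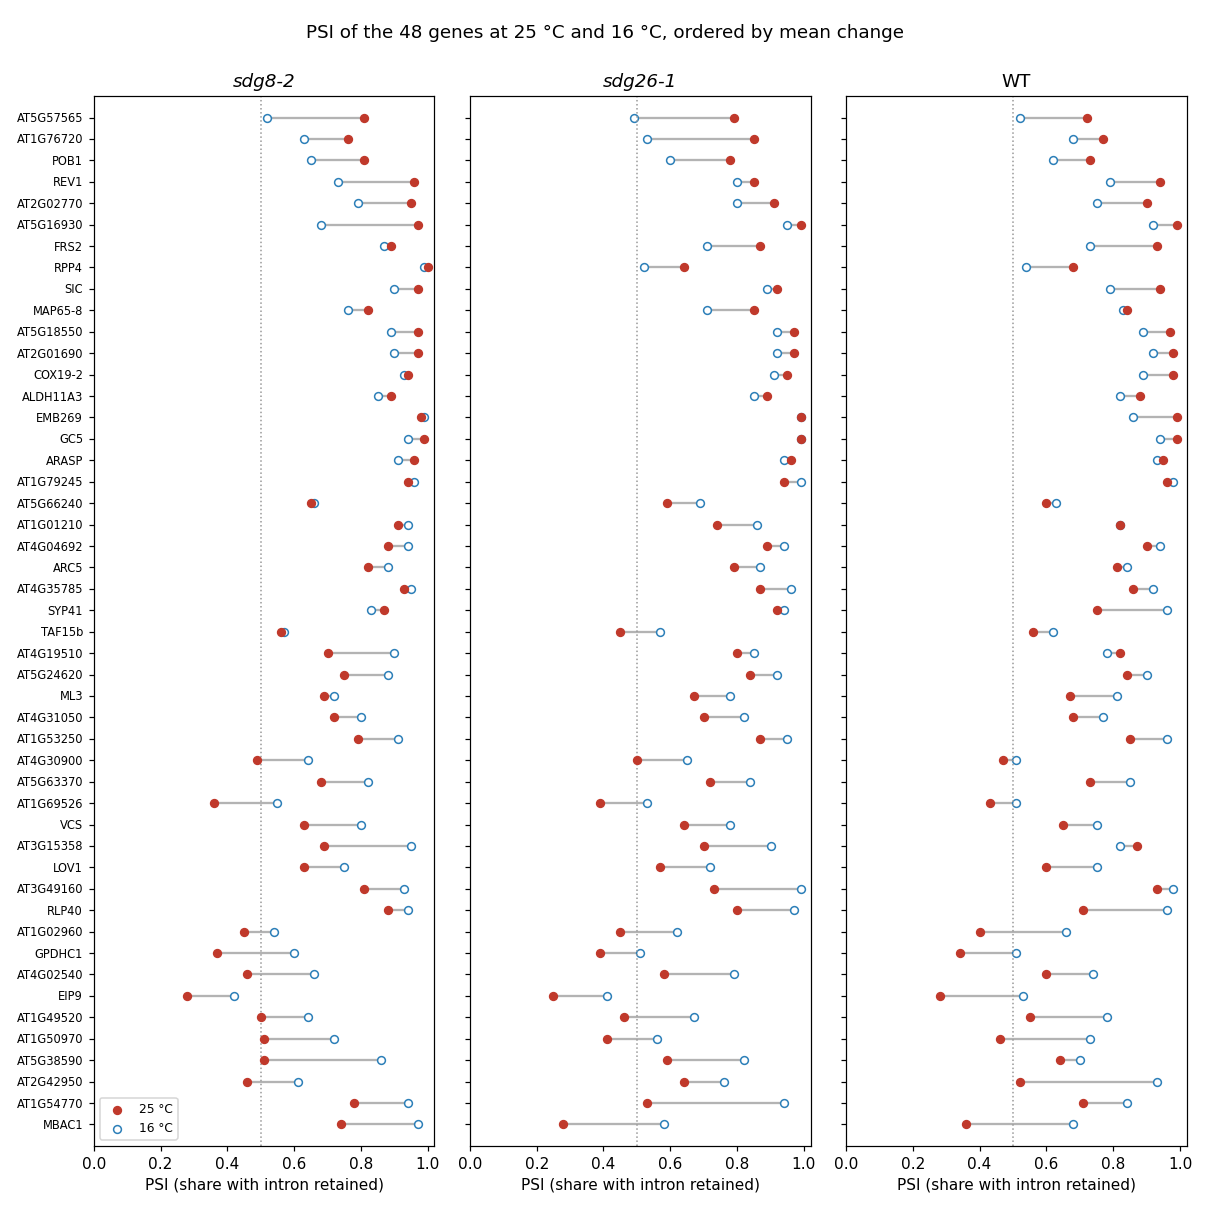
PSI of each of the 48 introns (rows, ordered by the mean difference over genotypes, highest rise at the top) at 25 °C (filled red) and 16 °C (open blue) in *sdg8-2*, *sdg26-1* and WT. The dotted line marks 0.5, the level in WT at 16 °C from which a gene was taken, and in most rows the red point lies left of the blue one in every panel.

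The median PSI was 0.80 at 25 °C and 0.84 at 16 °C in *sdg8-2*, 0.785 and 0.82 in *sdg26-1*, and 0.76 and 0.80 in WT. An intron at 0.9 or more can rise by at most 0.1, and of the 18 genes at that level at 16 °C in *sdg8-2*, the 17 in *sdg26-1* and the 13 in WT, 0 had a rise, while 6, 4 and 4 had a fall. Such falls were present in 31.8%, 34.8% and 27.8% of all listed events. Nothing is read from the contrast with rises, because of this ceiling. At 25 °C the spliced form was the major one (PSI under 0.5) in 7 genes in *sdg8-2*, 8 in *sdg26-1* and 7 in WT. At 16 °C this held for 1 gene in *sdg8-2*, 2 in *sdg26-1* and, by the rule, 0 in WT. Of all 155 listed IR events, 88 at 25 °C and 75 at 16 °C were under 0.5 in *sdg8-2*. In *sdg26-1* these numbers were 87 and 76, and in WT 88 and 83. Of all 399 listed events, 206 at 25 °C and 193 at 16 °C were under 0.5 in *sdg8-2*. In *sdg26-1* these were 201 and 186, and in WT 204 and 195. Where the mutants resemble WT, the rule also keeps their counts at 16 °C low. Nothing is therefore read from the contrast between the temperatures in these counts. *EIP9* was under 0.5 at both temperatures in both mutants. *GPDHC1*, *EIP9*, AT1G02960 and AT1G69526 were under 0.5 at 25 °C in all 3 genotypes.

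The genes for RNA synthesis, processing, decay and translation were 9 in number. A fall of 0.1 or more was present in 2 of them in *sdg8-2*, 5 in *sdg26-1* and 3 in WT, and a rise in 1 in each genotype. AT1G54770 encodes an Fcf2 family protein of pre-rRNA processing. Retention stood at 0.78 at 25 °C and 0.94 at 16 °C in *sdg8-2*, 0.53 and 0.94 in *sdg26-1*, and 0.71 and 0.84 in WT. The fall was thus present in every genotype, and at 0.41 in *sdg26-1* it was the largest of the 48 in that line. *VCS* (VARICOSE) encodes the scaffold of the mRNA decapping complex. The values at 25 °C and 16 °C were 0.63 and 0.80 in *sdg8-2*, 0.64 and 0.78 in *sdg26-1*, and 0.65 and 0.75 in WT. The genotypes were within 0.02 of each other at 25 °C and differed by up to 0.05 at 16 °C. *ML3*, a MEI2-like RNA-binding protein gene that RefSeq annotates as a transcribed pseudogene, had 0.69 at 25 °C and 0.72 at 16 °C in *sdg8-2*, 0.67 and 0.78 in *sdg26-1*, and 0.67 and 0.81 in WT. *TAF15b*, which encodes a TBP-associated factor with RNA-binding domains that acts in flowering and immunity, had 0.56 and 0.57 in *sdg8-2*, 0.45 and 0.57 in *sdg26-1*, and 0.56 and 0.62 in WT, again 25 °C before 16 °C. For both genes the difference reached 0.1 in *sdg26-1* and stayed under 0.04 in *sdg8-2*. In WT, PSI was lower at 25 °C by 0.14 for *ML3* and by 0.06 for *TAF15b*.

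In 3 genes of this group PSI was higher at 25 °C in all genotypes. AT1G76720 encodes a protein of the eIF2 family of translation initiation factors, and its only annotated candidate is the shortest of the introns printed above. PSI was 0.76 at 25 °C and 0.63 at 16 °C in *sdg8-2*, 0.85 and 0.53 in *sdg26-1*, and 0.77 and 0.68 in WT. The rise of 0.32 in *sdg26-1* was the largest of any of the 48 genes in any genotype, and *sdg26-1* had the highest of the 3 values at 25 °C and the lowest at 16 °C. AT1G76720 is also the neighbour of SDG26 (named ASHH1 in RefSeq), with 1424 bases between the gene ends on chromosome 1 of TAIR10.1 (SDG26 from 28789698 to 28792719, AT1G76720 from 28794144 to 28800402). The T-DNA of *sdg26-1* and the effect of the mutation therefore cannot be told apart at this locus. *SIC* (SICKLE), which encodes a protein needed for the maturation of microRNAs and the splicing of some introns, had 0.97 at 25 °C and 0.90 at 16 °C in *sdg8-2*, 0.92 and 0.89 in *sdg26-1*, and 0.94 and 0.79 in WT. The size thus passed 0.1 in WT only, and the mutants already had the higher values at 16 °C. The zinc finger gene AT5G18550 had 0.97 at 25 °C in every genotype and 0.89, 0.92 and 0.89 at 16 °C in *sdg8-2*, *sdg26-1* and WT. AT4G35785, an RNA-binding protein gene, was lower at 25 °C by 0.02 in *sdg8-2*, 0.09 in *sdg26-1* and 0.06 in WT. AT1G01210, which encodes an RNA polymerase subunit, was lower by 0.03 in *sdg8-2* and 0.12 in *sdg26-1* and stood at 0.82 at both temperatures in WT.

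Genes for organelle proteins and primary metabolism were the largest group, with 11 members that split in direction. Their median difference was −0.01 in *sdg8-2*, 0.0 in *sdg26-1* and 0.02 in WT, with falls of 0.1 or more in 3, 4 and 2 genes and rises in 2, 1 and 2. *MBAC1*, the mitochondrial carrier of basic amino acids, had the largest fall that all genotypes shared. PSI was 0.74 at 25 °C and 0.97 at 16 °C in *sdg8-2*, 0.28 and 0.58 in *sdg26-1*, and 0.36 and 0.68 in WT. The falls of 0.23, 0.30 and 0.32 were thus similar in size while the levels were not, and the 25 °C value of *sdg8-2* lay above the 16 °C value of the other genotypes. *GPDHC1*, the cytosolic glycerol-3-phosphate dehydrogenase, had 0.37 at 25 °C and 0.60 at 16 °C in *sdg8-2*, 0.39 and 0.51 in *sdg26-1*, and 0.34 and 0.51 in WT. AT3G49160, a pyruvate kinase family gene, had 0.81 and 0.93 in *sdg8-2*, 0.73 and 0.99 in *sdg26-1*, and 0.93 and 0.98 in WT. At 25 °C the spliced form was 0.27 of the transcripts in *sdg26-1*, against 0.07 in WT, and at 16 °C it was 0.07 or less in every genotype. AT4G31050, an octanoyltransferase gene of lipoate synthesis, had 0.72 at 25 °C and 0.80 at 16 °C in *sdg8-2*, 0.70 and 0.82 in *sdg26-1*, and 0.68 and 0.77 in WT.

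Retention was higher at 25 °C in AT5G16930, which encodes an AAA-type ATPase. PSI was 0.97 at 25 °C and 0.68 at 16 °C in *sdg8-2*, 0.99 and 0.95 in *sdg26-1*, and 0.99 and 0.92 in WT. The genotypes were within 0.02 of each other at 25 °C, and at 16 °C *sdg8-2* stood 0.24 below WT. AT2G02770 encodes a 4′-phosphopantetheinyl transferase domain protein, and had 0.95 and 0.79 in *sdg8-2*, 0.91 and 0.80 in *sdg26-1*, and 0.90 and 0.75 in WT. It is 1 of the 3 genes that were higher at 25 °C by 0.1 or more in all genotypes. *EMB269*, which encodes an Obg-like GTPase of chloroplasts, was kept at 0.98 and 0.99 in *sdg8-2*, at 0.99 and 0.99 in *sdg26-1*, and at 0.99 and 0.86 in WT. Only the WT value at 16 °C was under 0.98. The cytochrome c oxidase assembly gene *COX19-2*, the glyceraldehyde-3-phosphate dehydrogenase gene *ALDH11A3* and the chloroplast protease gene *ARASP* had PSI values between 0.82 and 0.98 throughout and were higher at 25 °C by 0.01 to 0.09. *ARC5*, a dynamin-related gene of chloroplast division, was lower at 25 °C, by 0.06 in *sdg8-2*, 0.08 in *sdg26-1* and 0.03 in WT. The in-frame introns of *ARASP* and *ARC5* printed above are both kept in most transcripts if they are the measured ones.

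Among genes for transcription, chromatin and DNA repair, 2 were lower and 2 higher at 25 °C in every genotype. *LOV1* encodes a NAC transcription factor that delays flowering. Retention was 0.63 at 25 °C and 0.75 at 16 °C in *sdg8-2*, 0.57 and 0.72 in *sdg26-1*, and 0.60 and 0.75 in WT, so a fall of 0.12 to 0.15 was present in each. The only annotated candidate is the 105-base intron printed above, which lies in frame in the coding sequence. AT1G49520, a SWIB domain gene, had 0.50 and 0.64 in *sdg8-2*, 0.46 and 0.67 in *sdg26-1*, and 0.55 and 0.78 in WT. *REV1*, which encodes a translesion DNA polymerase, had 0.96 at 25 °C and 0.73 at 16 °C in *sdg8-2*, 0.85 and 0.80 in *sdg26-1*, and 0.94 and 0.79 in WT. Its rise was thus 0.23, 0.05 and 0.15. *FRS2*, a member of the FAR1-related family of transposase-derived factors, had 0.89 and 0.87 in *sdg8-2*, 0.87 and 0.71 in *sdg26-1*, and 0.93 and 0.73 in WT. Here *sdg8-2* was already at 0.87 at 16 °C, and the size passed 0.1 in the other genotypes only.

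Of the 6 genes for kinases, ubiquitin ligase adaptors, chaperones and cytoskeletal proteins, 3 were higher and 3 lower at 25 °C in every genotype. AT5G57565, a protein kinase superfamily gene, had 0.81 at 25 °C and 0.52 at 16 °C in *sdg8-2*, 0.79 and 0.49 in *sdg26-1*, and 0.72 and 0.52 in WT. With rises of 0.29, 0.30 and 0.20 it was the gene with the largest rise shared by all genotypes. *POB1* (LRB2), a BTB adaptor of ubiquitin ligases that act on phytochrome B, had 0.81 and 0.65 in *sdg8-2*, 0.78 and 0.60 in *sdg26-1*, and 0.73 and 0.62 in WT. Both mutants were above WT at 25 °C, by 0.08 and 0.05. *MAP65-8*, a microtubule-associated protein gene, had 0.82 and 0.76 in *sdg8-2*, 0.85 and 0.71 in *sdg26-1*, and 0.84 and 0.83 in WT. AT5G38590, an F-box gene, was lower at 25 °C, with 0.51 and 0.86 in *sdg8-2*, 0.59 and 0.82 in *sdg26-1*, and 0.64 and 0.70 in WT. The falls of 0.35 and 0.23 in the mutants compare with 0.06 in WT, and the mutants were below WT at 25 °C and above it at 16 °C. *EIP9*, a DnaJ chaperone gene, had the lowest level of the 48 at 25 °C, with 0.28 and 0.42 in *sdg8-2*, 0.25 and 0.41 in *sdg26-1*, and 0.28 and 0.53 in WT. AT5G63370 (CDKG1), a cyclin-dependent kinase gene linked to splicing, had 0.68 and 0.82 in *sdg8-2*, 0.72 and 0.84 in *sdg26-1*, and 0.73 and 0.85 in WT. Its falls of 0.14, 0.12 and 0.12 were nearly equal.

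Membrane traffic and transport genes, 4 in number, had no rise of 0.1 or more in any genotype. AT2G42950, a CorA-like magnesium transporter family gene, had the largest fall in WT. It had 0.46 at 25 °C and 0.61 at 16 °C in *sdg8-2*, 0.64 and 0.76 in *sdg26-1*, and 0.52 and 0.93 in WT. The WT value at 16 °C was the high one, 0.32 above *sdg8-2* and 0.17 above *sdg26-1*, and the gene was chosen by that value. AT1G50970, a VPS53 family gene of membrane trafficking, had 0.51 and 0.72 in *sdg8-2*, 0.41 and 0.56 in *sdg26-1*, and 0.46 and 0.73 in WT. *SYP41*, a syntaxin of the trans-Golgi network, had 0.87 and 0.83 in *sdg8-2*, 0.92 and 0.94 in *sdg26-1*, and 0.75 and 0.96 in WT. Only WT had a fall of 0.1 or more in this gene, and its 25 °C value was the lowest of the 6. The golgin gene *GC5* was kept at 0.94 to 0.99 throughout.

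Of the 4 genes for immune receptors and defence proteins, *RPP4*, a TIR-NBS-LRR gene for resistance to downy mildew, had the largest difference between genotypes. PSI was 1.00 at 25 °C and 0.99 at 16 °C in *sdg8-2*, 0.64 and 0.52 in *sdg26-1*, and 0.68 and 0.54 in WT. The spliced form was thus at most 0.01 of the transcripts in *sdg8-2*, against 0.32 to 0.48 in the other genotypes. *RPP4* belongs to a cluster of near-identical resistance genes. Whether reads were assigned to the wrong copy was not tested, so its values are uncertain. AT4G19510, another TIR-NBS-LRR gene, had 0.70 at 25 °C and 0.90 at 16 °C in *sdg8-2*, 0.80 and 0.85 in *sdg26-1*, and 0.82 and 0.78 in WT. The mutants were lower and WT was higher at 25 °C. *RLP40*, a receptor-like protein gene, had 0.88 and 0.94 in *sdg8-2*, 0.80 and 0.97 in *sdg26-1*, and 0.71 and 0.96 in WT. At 25 °C *sdg8-2* was 0.17 and *sdg26-1* 0.09 above WT, and at 16 °C the genotypes were within 0.03 of each other. AT5G24620, a thaumatin family gene, had 0.75 and 0.88 in *sdg8-2*, 0.84 and 0.92 in *sdg26-1*, and 0.84 and 0.90 in WT.

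Of the 5 genes with other domains, 4 were lower at 25 °C in every genotype, and of the 5 with no domain named in the table, 5 were lower in each mutant and 4 in WT. In the first group, AT4G02540, a C1 domain gene, had 0.46 at 25 °C and 0.66 at 16 °C in *sdg8-2*, 0.58 and 0.79 in *sdg26-1*, and 0.60 and 0.74 in WT. AT1G69526, a methyltransferase family gene, had 0.36 and 0.55 in *sdg8-2*, 0.39 and 0.53 in *sdg26-1*, and 0.43 and 0.51 in WT. AT4G30900, a DNase I-like gene, had 0.49 and 0.64 in *sdg8-2*, 0.50 and 0.65 in *sdg26-1*, and 0.47 and 0.51 in WT, so the mutants were within 0.03 of WT at 25 °C and above it by 0.13 and 0.14 at 16 °C. AT5G66240 (WD40 repeats) was lower at 25 °C by 0.01, 0.10 and 0.03 in *sdg8-2*, *sdg26-1* and WT, and AT2G01690 (ARM repeats) was higher by 0.07, 0.05 and 0.06.

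In the group with no domain named, AT1G02960 (a kinetochore protein in RefSeq) had 0.45 and 0.54 in *sdg8-2*, 0.45 and 0.62 in *sdg26-1*, and 0.40 and 0.66 in WT. AT3G15358, which encodes an uncharacterized protein, had 0.69 and 0.95 in *sdg8-2*, 0.70 and 0.90 in *sdg26-1*, and 0.87 and 0.82 in WT. Both mutants were lower at 25 °C, by 0.26 and 0.20, whereas WT was higher by 0.05. AT1G53250 was lower at 25 °C by 0.12, 0.08 and 0.11 in *sdg8-2*, *sdg26-1* and WT, and the transcribed pseudogenes AT4G04692 and AT1G79245 by 0.02 to 0.06.

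The mutants resembled WT in level in most of the 48 genes. At 25 °C *sdg8-2* was higher than WT by 0.1 or more in 4 genes (8.33%, against 7.77% of all listed events and 8.39% of IR events) and lower in 5 (10.4%, against 7.27% and 7.74%). In *sdg26-1* 2 genes were higher (4.17%, against 5.01% and 3.87%) and 4 lower (8.33%, against 4.51% and 5.81%). These shares were near those of the whole table, and the median differences were 0.0 in *sdg8-2* and −0.01 in *sdg26-1*. At 16 °C *sdg8-2* was higher than WT in 11 genes (22.9%, against 11.3% of all events and 16.8% of IR events) and lower in 6 (12.5%, against 7.02% and 5.81%). For *sdg26-1* the numbers were 5 higher (10.4%, against 6.77% and 10.3%) and 7 lower (14.6%, against 7.52% and 6.45%). The counts at 16 °C contain the WT value that chose the genes, so nothing is read from them.

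**Figure D3:**
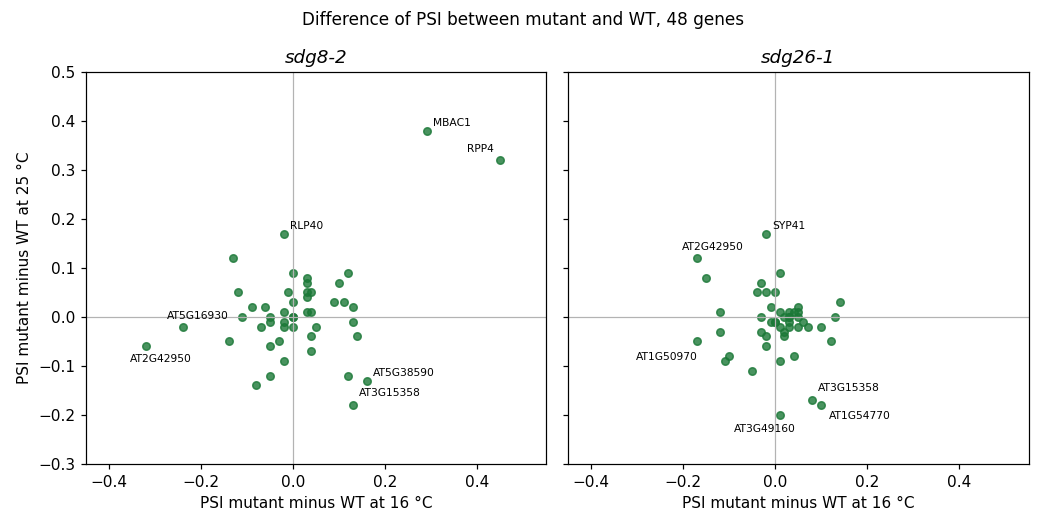
PSI of each mutant minus that of WT at 16 °C (x axis) and at 25 °C (y axis) for the 48 genes, with *sdg8-2* left and *sdg26-1* right, and with the gene named where either difference is 0.16 or more in size. *MBAC1* and *RPP4* stand apart in *sdg8-2*, above WT at both temperatures, and no gene does so in *sdg26-1*.

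*RPP4* and *MBAC1* were the genes in which *sdg8-2* was above WT by more than 0.2 at both temperatures, by 0.32 and 0.38 at 25 °C and by 0.45 and 0.29 at 16 °C. In *sdg26-1* the same genes were within 0.10 of WT at both temperatures. At 25 °C the other large differences of *sdg8-2* were in AT3G15358 (0.18 below WT), *RLP40* (0.17 above) and AT4G02540 (0.14 below). The largest of *sdg26-1* were in AT3G49160, AT1G54770 and AT3G15358 (0.20, 0.18 and 0.17 below WT), *SYP41* (0.17 above) and AT2G42950 (0.12 above). AT3G15358 was thus below WT at 25 °C in both mutants by nearly the same amount.

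The change with temperature differed from that of WT by 0.1 or more in 15 genes in each mutant. In *sdg8-2* the mutant's change was lower (more negative or less positive) in 8 genes (16.7%, against 14.8% of all events and 18.7% of IR events) and higher in 7 (14.6%, against 11.3% and 12.3%). In *sdg26-1* it was lower in 9 (18.8%, against 12.8% and 19.4%) and higher in 6 (12.5%, against 9.77% and 9.03%). These shares were close to those of all IR events. The change in WT contains the value that chose the genes, so nothing is read from the shares. The largest differences were −0.31 for AT3G15358, −0.29 for AT5G38590 and 0.26 for AT2G42950 in *sdg8-2*, and −0.28 for AT1G54770, −0.25 for AT3G15358 and 0.29 for AT2G42950 in *sdg26-1*. Both mutants are set against the same WT values, so the 2 columns of differences are not independent of each other.

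**Figure D4:**
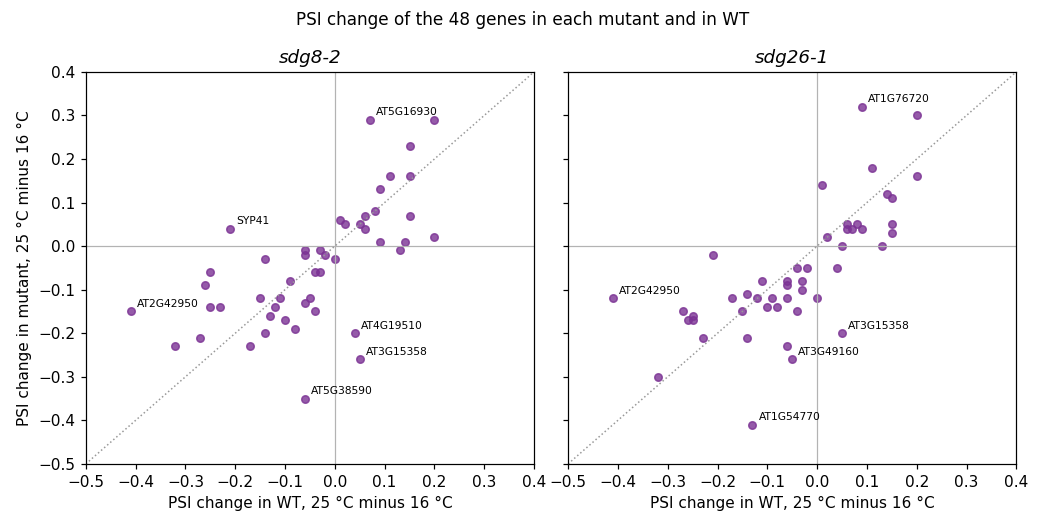
PSI change (25 °C minus 16 °C) of the 48 genes in WT (x axis) and in *sdg8-2* (left) or *sdg26-1* (right) on the y axis, with the dotted line at equal changes and the gene named where the changes differ by 0.2 or more. Most points lie in the lower left or upper right part of the panel, and AT3G15358 lies at the lower right in both panels. The WT change contains the value that chose the genes.

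The entry level was not a natural border. Just inside it were *GPDHC1*, AT4G30900 and AT1G69526 at 0.51, AT5G57565 at 0.52 and *EIP9* at 0.53 in WT at 16 °C. Just outside were *UKL4* (AT4G26510) and *G18F* (AT5G54730) at 0.49 and AT5G53010 and AT1G27921 at 0.47. AT1G27921 overlaps *MAP65-8* in the annotation, and its own event had 0.46 at 25 °C and 0.65 at 16 °C in *sdg8-2*, 0.65 and 0.45 in *sdg26-1*, and 0.69 and 0.47 in WT. The libraries keep strand, but no source says whether the PSI estimate made use of it. In all, 18 of the 48 genes overlap another annotated gene, *GPDHC1*, *LOV1*, *RLP40*, *SYP41* and *TAF15b* among them, and whether reads of the neighbour entered their PSI was not tested.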

How the data were processed

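Poly(A) RNA from SAM-enriched tissue was sequenced as stranded libraries. Per the submitters' processing notes, reads were handled with TopHat2 and Cufflinks on the TAIR10 build. MISO, which estimated PSI, comes from the study's methods, and tool versions were not stated. The 3 replicates of a condition were pooled, and the authors deposited PSI as a fraction, with 1 value per event in each of the 6 conditions. Thus the precision and the depth behind each value are unknown. The authors' own differences and yes or no calls (6 columns) were not used. The replicates are biological samples, but their values are not in the table.

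PSI differences were recomputed as 25 °C minus 16 °C and as mutant minus WT, and those of 0.1 or more were counted. No test was made, because events are not replicates. The counting was tested on simulated data. The members, gene groups and naming rule were chosen with earlier results of these data known. The text names every member, with all 6 values for those with the 5 largest rises, falls or differences from WT. All 48 gene identifiers were found in RefSeq (TAIR10.1). Of 46 members with coding coordinates in the table, 45 lay within the RefSeq gene. Alternatives changed the entry level (0.6, or the mean of the 3 genotypes), the size counted (0.05, 0.2) and the genes admitted. Python 3.11.15, numpy 2.4.6, pandas 2.3.3 and matplotlib 3.10.9 were used.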

Additional observations from a re-analysis of the deposited data

Results flagged for a closer look

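In 3 genes the mutant's PSI change (25 °C minus 16 °C) had the opposite sign to that of WT and differed from it by 0.2 or more. In AT3G15358 the change was −0.26 in *sdg8-2* and −0.20 in *sdg26-1*, against 0.05 in WT, a difference from WT of −0.31 and −0.25. In AT4G19510, a TIR-NBS-LRR gene, it was −0.20 in *sdg8-2*, against 0.04 in WT, a difference of −0.24. In *SYP41* (AT5G26980), the syntaxin gene, it was 0.04 in *sdg8-2*, against −0.21 in WT, a difference of 0.25. Each rests on 1 pooled value per genotype and temperature, and the differences were not tested. Each difference from WT also contains the WT value that chose the genes. In AT3G15358 the sign was shared by both mutants, which are compared with the same WT values.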

How the results depend on the processing

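Of 84 values computed under the alternatives, 71 stayed within 1.5 times of the main value and 13 moved further. Most of the values are percentages, which cannot change sign. Only the median changes could reverse in direction, and 0 of them did. Raising the entry level to 0.6 or setting it on the mean of the genotypes moved 0 values. With a size of 0.05, rises were present in 25.0% of genes in *sdg8-2* and 33.3% in WT (12.5% and 16.7% at 0.1). With a size of 0.2, falls were present in 14.6% in *sdg8-2*, 14.6% in *sdg26-1* and 16.7% in WT, and rises in 6.2%, 4.2% and 4.2%, since a larger size admits fewer genes. The median change in *sdg8-2* was −0.07, against −0.045, both with all IR events at 0.5 or more in WT (n = 72) and without genes above 0.9 in WT at 16 °C (n = 36). Under the same 2 alternatives, genes higher in *sdg26-1* than in WT at 25 °C made up 2.8% and 0.0% (4.2% in the main count, 2 genes), and without genes above 0.9 those lower in *sdg8-2* at 16 °C made up 8.3% (12.5%). The cause of these last moves was not tested. No paired analysis was possible because the deposited columns are pooled over replicates and carry no replicate numbers, and for the same reason no replicate could be left out. The unknown depth and the missing replicate error limit every difference, single genes most of all.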
